A study of Mus musculus with 9 samples.

Results

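The 43 genes described here encode proteins of the cytosolic ribosome and were read in mouse cumulus cells. They were taken by symbol: Rpl or Rps followed by a number, together with Rplp0, Rplp1, Rplp2 and Rpsa, leaving out the Rps6k kinases, pseudogenes and like genes such as Rpl22l1. Each gene was represented by its probe set (a group of short probes for 1 transcript) with the highest mean among probe sets that the array annotation assigns to a single gene. The 43 genes are among 18194 with such a probe set, and 42 of them were among the 13447 genes bright enough to be tested. A gene was tested where at least 3 of the 9 arrays lay above the 40th percentile of all values on their own array. Rps16 was the member left out by that filter, at log2 values of 3.63 to 4.06 on all 9 arrays. The reference annotation lists 77 protein-coding genes that fit the rule, and 34 of them, Rplp1 included, had no probe set of their own here.

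Cumulus cells, a kind of granulosa cell, enclose the oocyte of the antral follicle and respond to BMP15 and GDF9, TGF-beta family factors made by that oocyte. Samples came from Bmp15-/-Gdf9+/- females (called DM, with no BMP15 and 1 intact copy of Gdf9), from Bmp15-/- females and from wildtype females, with 3 arrays for each genotype. All were 4 to 5 months old, were on a mixed B6/129 background and had received 5 IU of equine chorionic gonadotropin for 48 hours, and each array came from a separate pool of 75 to 100 cumulus-oocyte complexes from 3 to 4 mice, collected in medium with 5 µM milrinone, which keeps oocytes from maturing. For each array, 10 ng of RNA was amplified in 2 rounds. The pools are independent, so the p-values take the spread from pool to pool into account. They do not reflect a gene's own spread alone. The model (limma) draws each gene's variance toward a value shared by all genes, with 3.46 prior beside 6 residual degrees of freedom. In bulk samples of this kind, fewer cells of a type and less RNA per cell cannot be told apart.

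The ribosome has a small subunit, which holds the messenger RNA and reads its codons, and a large subunit, which joins the amino acids. Each is a core of ribosomal RNA dressed with proteins of the Rps (small) and Rpl (large) families, which are made in matched amounts. Messenger RNAs of nearly all these proteins begin with a 5′ terminal oligopyrimidine (TOP) tract, a C followed by a run of pyrimidines, through which TOR signalling adjusts their translation according to nutrients and growth factors. Their transcripts are among the most abundant in growing cells.

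The starts of a few of these genes are shown because some short motifs were more frequent there in the group than among all genes. The selection by name did not use them, and most windows of the group lacked each one. The windows run from 50 bases before to 30 after the annotated start in RefSeq (assembly GRCm38.p6), 80 bases each, 5′ to 3′ on the transcribed strand. Capitals mark matches to the searched motifs CTTTC and CTCTTT (transcribed strand only, and able to overlap each other), TATAAA (transcribed strand) and CCGGAA (both strands).
Rps6 (chr4:86857338-86857417, minus strand): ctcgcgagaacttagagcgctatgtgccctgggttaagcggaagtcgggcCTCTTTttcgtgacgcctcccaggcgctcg
Rps28 (chr17:33824533-33824612, minus strand): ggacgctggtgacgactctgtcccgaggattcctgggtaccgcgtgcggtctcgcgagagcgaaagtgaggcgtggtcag
Rps18 (chr17:33955636-33955715, minus strand): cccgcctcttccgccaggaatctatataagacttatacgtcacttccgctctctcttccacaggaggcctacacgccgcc
Rplp2 (chr7:141447601-141447680, plus strand): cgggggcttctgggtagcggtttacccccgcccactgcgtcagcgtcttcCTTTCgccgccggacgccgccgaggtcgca
Rpl35 (chr2:39005102-39005181, minus strand): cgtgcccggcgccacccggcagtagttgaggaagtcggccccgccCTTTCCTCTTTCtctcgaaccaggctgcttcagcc
Rpl38 (chr11:114668530-114668609, plus strand): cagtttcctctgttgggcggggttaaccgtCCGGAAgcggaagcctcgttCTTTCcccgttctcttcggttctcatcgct
Rpl22 (chr4:152325676-152325755, plus strand): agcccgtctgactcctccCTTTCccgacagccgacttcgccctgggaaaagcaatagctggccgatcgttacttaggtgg
Rpl22l1, a like gene just outside the group (chr3:28805458-28805537, plus strand): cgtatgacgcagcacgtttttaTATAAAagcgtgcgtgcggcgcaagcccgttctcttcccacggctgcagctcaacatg

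In Rps6, Rplp2 and Rpl38 the capitals begin at the annotated start, inside a pyrimidine run that starts before it. In Rpl35 the capitals run across the start. An unmarked pyrimidine run also spans the start in Rps18, whose window holds none of the searched motifs. Of the 42 tested genes, 37 had 1 or more windows, 43 in all, and 5 had none. CTTTC was present in 15 of the 43 windows (34.9%), against 10.5% of the 32851 windows of all genes. CTCTTT was present in 6 (14.0%), against 3.26% of all. CCGGAA, the core letters of ETS-family sites, was present in 14 (32.6%), against 7.24% of all. TATAAA was present in 2 (4.7%), against 3.1% of all. Windows of the same gene can share bases, and a match is a description of letters and not a site.

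Most of the genes sat at the top of the brightness range on every array. Of the 42, 35 had mean log2 values of 11.93 to 13.95 and 7 had means of 7.31 to 9.13, with none between. The 7 lower ones were Rpl12, Rpl14, Rpl37, Rpl39, Rps6, Rps25 and Rps27, and the split at 11 was chosen after the values were seen. Brightness depends on the probes as well as the transcript, so a lower value does not rank 1 gene's messenger below another's.

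The median of the 35 bright genes was 13.43, 13.44 and 13.32 in the DM pools (arrays 1 to 3), 13.34, 13.29 and 13.42 in the Bmp15-/- pools and 13.31, 13.32 and 13.31 in the wildtype pools. The genotypes differed in this median by little, and DM array 3 and Bmp15-/- arrays 1 and 2 lay within 0.03 of the wildtype arrays. The median bright gene lay at the 99.36th to 99.55th percentile of the tested genes on each array, and the dimmest of the 35 at the 94.26th to 95.91st. The highest single value on an array was 14.38 to 14.53, so these probe sets stood close to the upper end of the scale. Whether that end compressed their differences was not tested, and 129 other genes with means of at least 13 are given beside them below.

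**Figure D1:**
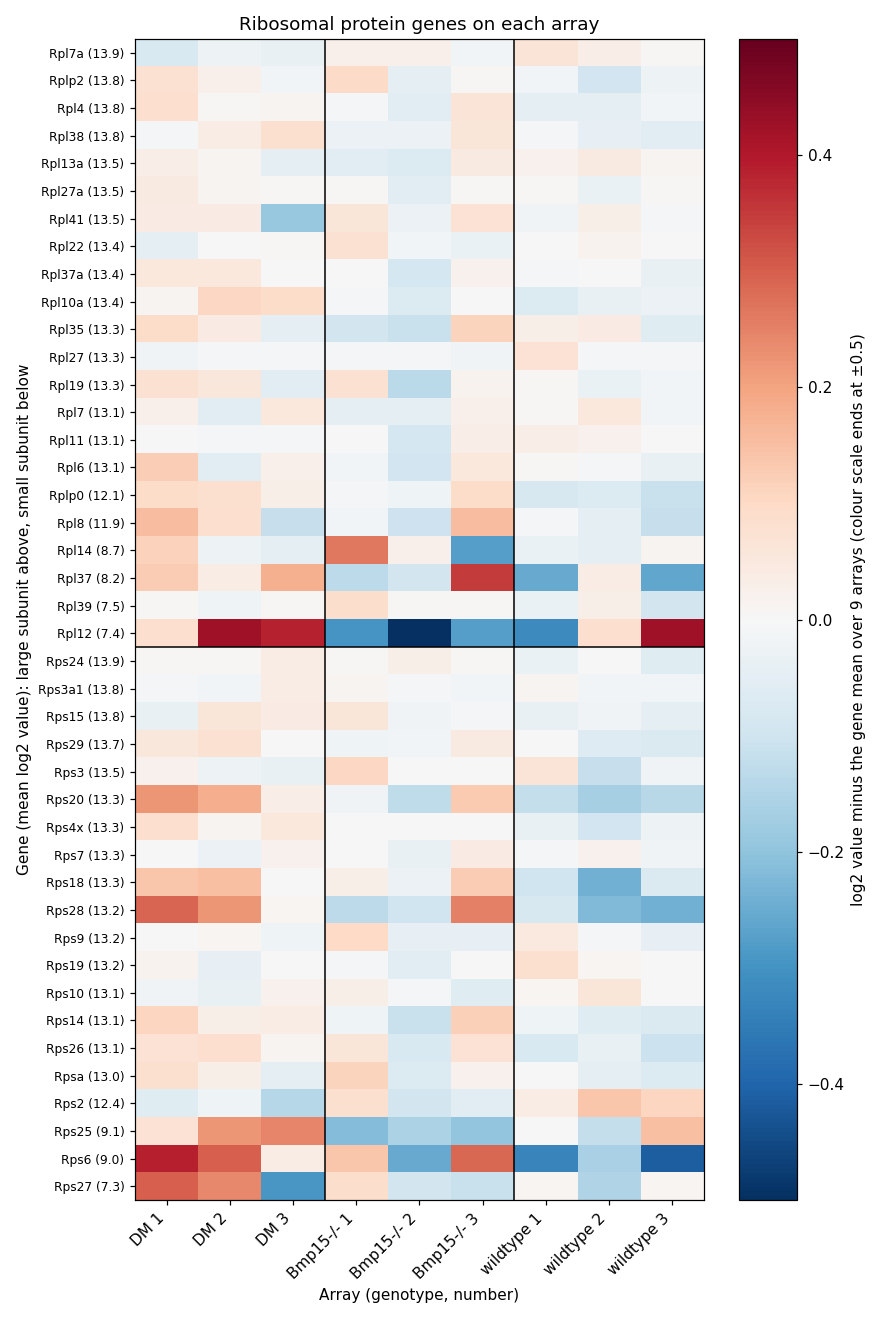
Each row is 1 of the 42 tested ribosomal protein genes (large subunit above, small subunit below, with its mean log2 value) and each column an array, with DM left, Bmp15-/- in the middle and wildtype right. Colour gives the array's log2 value minus the gene's mean over 9 arrays, with the scale ending at ±0.5. Most rows are pale, and the stronger colours fall in Rps6, Rps20, Rps28 and Rps18 and in the lower-level genes Rpl12, Rpl14, Rpl37, Rps25 and Rps27.

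In DM cumulus cells, 2 of the 42 genes, Rps6 and Rps20, were higher than in wildtype cells at an adjusted p under 0.05 (limma, Benjamini-Hochberg over all 13447 genes), and none was lower. In the same comparison 28.1% of all tested genes passed, 9.95% higher and 18.2% lower. The other 40 ribosomal protein genes did not pass, and 4 of the 42 had an unadjusted p under 0.05. Differences of the 42 genes ran from -0.17 to 0.54 (log2) with a median of 0.049, beside a median of -0.062 over all genes tested. There were 32 positive differences and 10 negative ones. For 31 of the 42 genes (73.8%) the whole 95% interval of the difference lay within 1.25-fold either way, 0.32 on the log2 scale. That held for 19.5% of all tested genes and for 58.9% of the 129 other genes with means of at least 13, of which 16.3% passed the test, 8.53% higher and 7.75% lower. Within the group it held for 30 of the 35 bright genes (85.7%) but for 1 of the 7 lower ones (14.3%). All 7 lower genes had positive differences, with a median of 0.167, beside 0.041 for the bright ones. Their median standard error was 0.139, beside 0.074.

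In Bmp15-/- cells none of the 42 genes passed against wildtype in either direction, where 9.07% of all genes did, 3.29% higher and 5.78% lower. An unadjusted p under 0.05 was reached by 2 genes, Rps6 and Rpl12. Differences ran from -0.42 to 0.36 with a median of 0.025, beside -0.036 over all genes. The 95% interval lay within 1.25-fold for 34 genes (81.0%), against 24.0% of all genes and 76.7% of the other 129, of which 0.775% passed. Among the 34 were 32 of the 35 bright genes and 2 of the 7 lower ones.

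Between DM and Bmp15-/- cells none of the 42 genes passed either, where 3.25% of all genes did, 1.64% higher and 1.61% lower. The genes with an unadjusted p under 0.05 were Rpl12 and Rps25. Differences ran from -0.07 to 0.65 with a median of 0.032, beside -0.035 over all genes. The interval lay within 1.25-fold for 35 genes (83.3%), against 27.0% of all genes and 88.4% of the other 129, of which 0.775% passed. Among them were 33 of the 35 bright genes and 2 of the 7 lower ones. The 3 comparisons share arrays, so their values are not independent of each other.

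**Figure D2:**
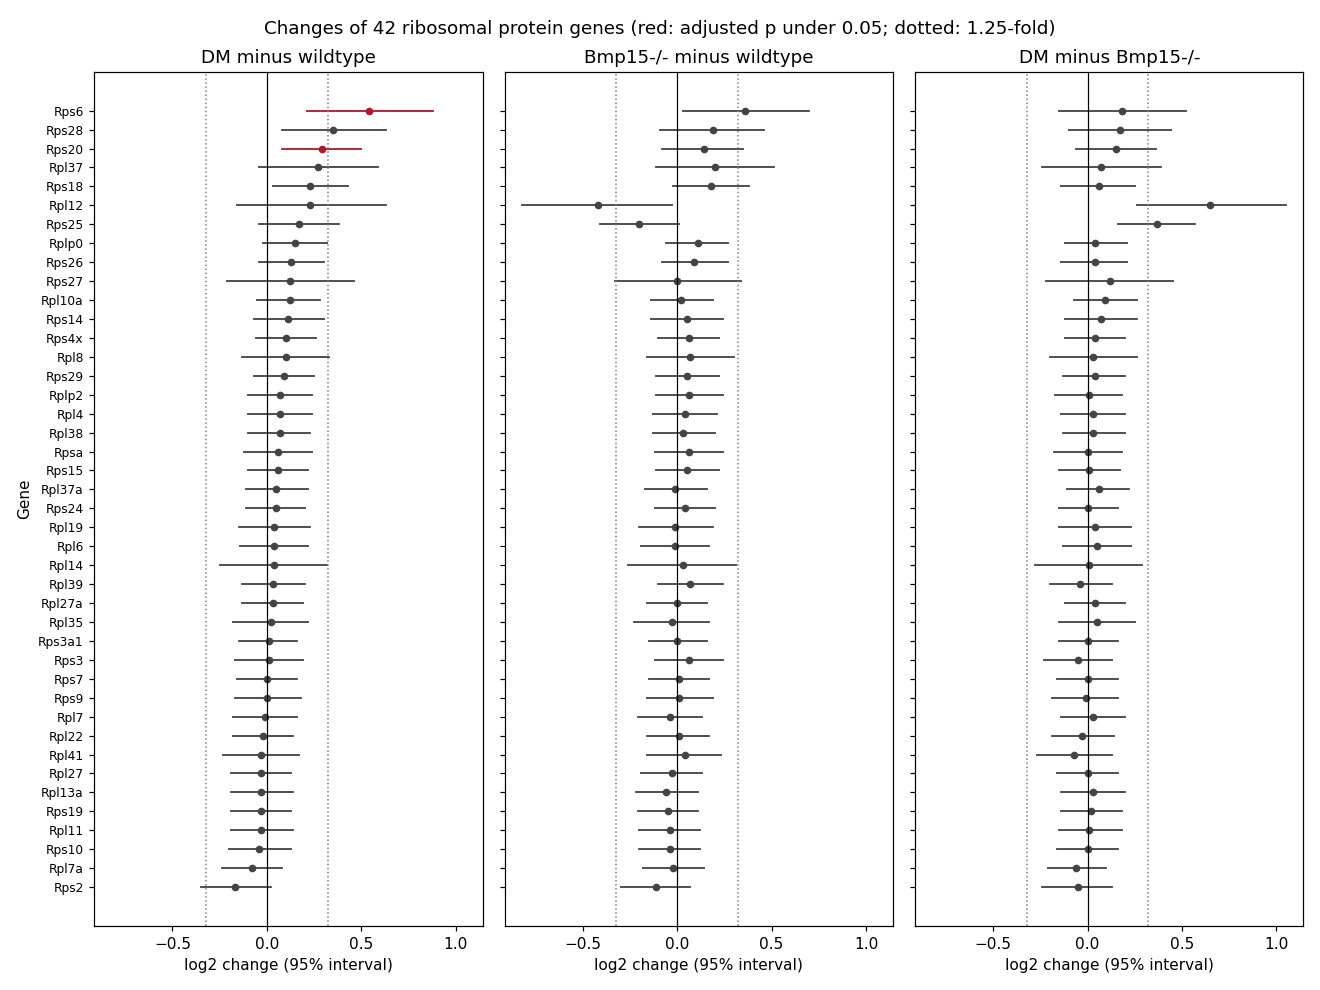
Points are the log2 differences of the 42 genes and bars their 95% intervals, for DM minus wildtype, Bmp15-/- minus wildtype and DM minus Bmp15-/-, in the order of DM minus wildtype. Rps6 and Rps20 are drawn in red in the left panel as the genes with an adjusted p under 0.05, and dotted lines mark 1.25-fold (0.32).

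**Figure D3:**
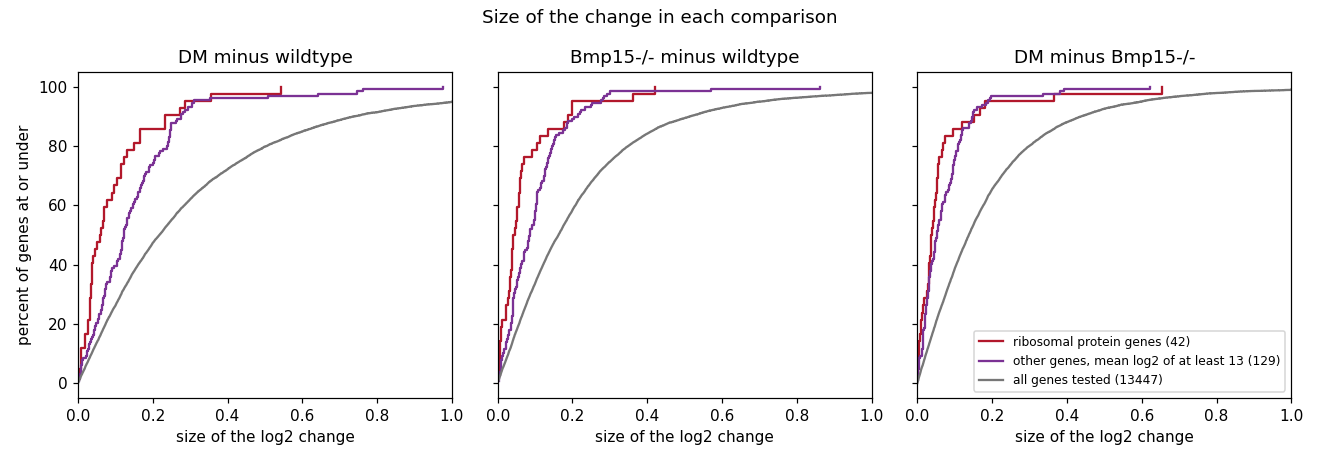
Curves give the percent of genes whose absolute log2 difference is at or under the value on the x axis, for the 42 ribosomal protein genes, 129 other genes with a mean of at least 13, and all 13447 tested genes. In all 3 panels the ribosomal protein curve lies far above that of all genes and nearer to that of the other bright genes.

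Counted by array, 11 of the 42 genes had all 3 DM values above all 3 wildtype values, where 15.9% of all genes did: Rpl4, Rpl10a, Rplp0, Rps4x, Rps6, Rps14, Rps18, Rps20, Rps24, Rps26 and Rps28. All DM values lay below all wildtype values in 2, Rpl7a and Rps2, where 27.4% of all genes did so. The other 29 overlapped. Of the 129 other genes with means of at least 13, 35 lay wholly above and 35 wholly below. In Bmp15-/- against wildtype 5 genes lay wholly above (13.4% of all genes did) and 1 wholly below (23.4%). In DM against Bmp15-/- 4 lay wholly above (8.95%) and 1 wholly below (12.5%). Of the 129, 31 lay wholly above and 28 wholly below in Bmp15-/- against wildtype. In DM against Bmp15-/- those counts were 8 and 21.

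The spread between pools of a genotype was small. The within-genotype SD of the 42 genes had a median of 0.051, against 0.15 for all tested genes and 0.054 for the other 129 bright genes. It was 0.044 for the 35 bright ribosomal protein genes and 0.186 for the 7 lower ones. The standard error of a difference had a median of 0.076 over the 42 genes. That error also carries the variance limma shares between genes. Rps3a1, with SDs of 0.03 in DM, 0.01 in Bmp15-/- and 0.02 in wildtype cells, had standard errors of 0.07.

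The P stalk of the large subunit, which recruits elongation factors, is built from Rplp0, Rplp1 and Rplp2. Rplp0 read 12.23, 12.22 and 12.17 in DM (arrays 1 to 3), 12.13, 12.12 and 12.23 in Bmp15-/- and 12.06, 12.07 and 12.03 in wildtype cells. Its DM and Bmp15-/- values all lay above the wildtype ones, by 0.15 ± 0.07 (SE) in DM (limma adjusted p = 0.16) and 0.11 ± 0.07 in Bmp15-/- (0.393), neither of which passed. Rplp2 read 13.90, 13.85 and 13.81 in DM, 13.92, 13.78 and 13.83 in Bmp15-/- and 13.81, 13.73 and 13.80 in wildtype cells, with overlap between all genotypes.

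Rpl12 lies at the base of that stalk. It read 7.47, 7.81 and 7.77 in DM, 7.09, 6.88 and 7.11 in Bmp15-/- and 7.07, 7.47 and 7.81 in wildtype cells. The DM arrays all lay above the Bmp15-/- arrays, and the wildtype arrays overlapped with each of them. DM exceeded Bmp15-/- by 0.65 ± 0.18, the widest difference of any of the 42 genes in the 3 comparisons, with a limma adjusted p of 0.0775 that missed the threshold. Rpl12 and the genes Rps2, Rps18, Rps25 and Rps28 below were chosen for their values.

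In the large subunit no gene passed in any comparison, and Rpl12 alone reached an unadjusted p under 0.05. Over its 22 genes, Rplp0, Rplp2 and Rpl12 included, DM minus wildtype had a median of 0.037 and Bmp15-/- minus wildtype a median of 0.002. Rpl11, which with the 5S ribosomal RNA can bind and restrain Mdm2, the ligase that degrades p53, had means of 13.09 ± 0.01 in DM, 13.08 ± 0.06 in Bmp15-/- and 13.12 ± 0.02 in wildtype cells (SD, n = 3 each). Its 95% interval for DM minus wildtype was -0.19 to 0.14. Rpl7a, with the highest mean of the group at 13.95, read 13.87, 13.92 and 13.91 in DM, 13.97, 13.97 and 13.93 in Bmp15-/- and 14.01, 13.98 and 13.95 in wildtype cells. The DM arrays lay below all others by a narrow margin, and the difference from wildtype was -0.08 ± 0.07 (limma adjusted p = 0.45).

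Rpl13a and Rpl19 are widely used as reference transcripts for quantitative PCR. Rpl13a averaged 13.54 ± 0.04 in DM, 13.51 ± 0.06 in Bmp15-/- and 13.57 ± 0.02 in wildtype cells (SD, n = 3 each). Rpl19 averaged 13.31 ± 0.07 in DM, 13.27 ± 0.11 in Bmp15-/- and 13.27 ± 0.02 in wildtype cells (SD, n = 3 each). In the chosen probe sets of both genes the values of the genotypes overlapped, and the 95% interval of each of the 3 differences stayed within 0.23 of 0. Other bright probe sets of Rpl13a differed from wildtype by -0.05 (1417608_a_at), 0.14 (1455001_x_at) and 0.21 (1433928_a_at) in DM. In Bmp15-/- the same probe sets gave -0.08, 0.12 and 0.22, and none of these differences passed.

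Rpl39, a small protein of the exit tunnel, was among the 3 genes with the lowest means. It read 7.49, 7.46 and 7.49 in DM, 7.57, 7.49 and 7.49 in Bmp15-/- and 7.45, 7.51 and 7.39 in wildtype cells. These values overlapped, and the gene varied less between arrays than the other genes of its brightness in the group.

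In the small subunit the 20 genes had a median DM minus wildtype difference of 0.075 and 2 of them passed, the only 2 of the group. The corresponding Bmp15-/- minus wildtype median was 0.049, and that of DM minus Bmp15-/- was 0.028, beside 0.032 in the large subunit. The difference between the subunits was not tested.

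Rps6 is the small-subunit protein that S6 kinases phosphorylate downstream of TOR. It read 9.42, 9.33 and 9.07 in DM, 9.17, 8.78 and 9.32 in Bmp15-/- and 8.70, 8.87 and 8.62 in wildtype cells. All DM arrays lay above all wildtype arrays, and the Bmp15-/- arrays overlapped both. DM averaged 9.27 ± 0.18 and wildtype 8.73 ± 0.12 (SD, n = 3 each), a difference of 0.54 (95% interval 0.21 to 0.88), or 1.46-fold, with a limma adjusted p of 0.0241. Bmp15-/- exceeded wildtype by 0.36 (limma adjusted p = 0.16) and DM exceeded Bmp15-/- by 0.18 (0.547). The DM call was lost when wildtype array 1, wildtype array 3, DM array 1 or DM array 2 was left out, with adjusted p values of 0.0713, 0.0815, 0.0802 and 0.0530.

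Rps20 is a protein of the head of the small subunit, where the messenger RNA enters. It read 13.57, 13.53 and 13.38 in DM, 13.33, 13.22 and 13.48 in Bmp15-/- and 13.23, 13.18 and 13.21 in wildtype cells. Again the DM arrays lay above the wildtype arrays, and the Bmp15-/- arrays lay between or among them. The DM minus wildtype difference was 0.29 (95% interval 0.08 to 0.50), or 1.22-fold, with a limma adjusted p of 0.0471, just inside the threshold. Removing any of 6 arrays, namely wildtype 1, 2 or 3, Bmp15-/- 1, DM 1 or DM 2, raised that adjusted p above it, to 0.0617 to 0.131. A second bright probe set of Rps20 read 13.43, 13.39 and 13.29 in DM, 13.26, 13.07 and 13.41 in Bmp15-/- and 13.07, 13.07 and 13.10 in wildtype cells, a DM minus wildtype difference of 0.29, with the same order of genotypes.

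Rps28 and Rps18 stood just outside the threshold in the same direction. Rps28 read 13.54, 13.47 and 13.26 in DM, 13.12, 13.15 and 13.50 in Bmp15-/- and 13.17, 13.03 and 13.01 in wildtype cells, a DM minus wildtype difference of 0.35 ± 0.12 (limma adjusted p = 0.0549). Rps18 read 13.43, 13.44 and 13.29 in DM, 13.32, 13.26 and 13.42 in Bmp15-/- and 13.19, 13.05 and 13.22 in wildtype cells, a difference of 0.23 ± 0.09 (0.0792). Other bright probe sets gave 0.30 for Rps28, but 0.10 (1435712_a_at, with overlap) and 0.18 (1448739_x_at) for Rps18. Dim Rps18 probe sets gave -0.15, -0.07 and 0.06. In these, Bmp15-/- lay below wildtype, by -0.64, -0.38 and -0.37. In the chosen probe sets of Rps28 and Rps18, as in Rps20, the 3 highest arrays were DM 1, DM 2 and Bmp15-/- 3. Rps6 had the same 3 arrays on top.

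Those 3 arrays also carried the 3 lowest medians of the oocyte markers, DM 2 by a narrow margin. The same 3 arrays had the highest medians of the 35 bright genes, at 13.43 (DM 1), 13.44 (DM 2) and 13.42 (Bmp15-/- 3). The array pattern was thus not particular to the 4 genes. Over the 13 of 18 oocyte markers that were tested, the median was 5.22, 5.65 and 5.98 in DM, 5.70, 6.44 and 5.52 in Bmp15-/- and 5.69, 7.25 and 5.99 in wildtype cells. Log2 values of this platform have no true 0, so no marker can be listed at 0. The part of oocyte RNA in the 4 genes' differences was not tested.

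**Figure D4:**
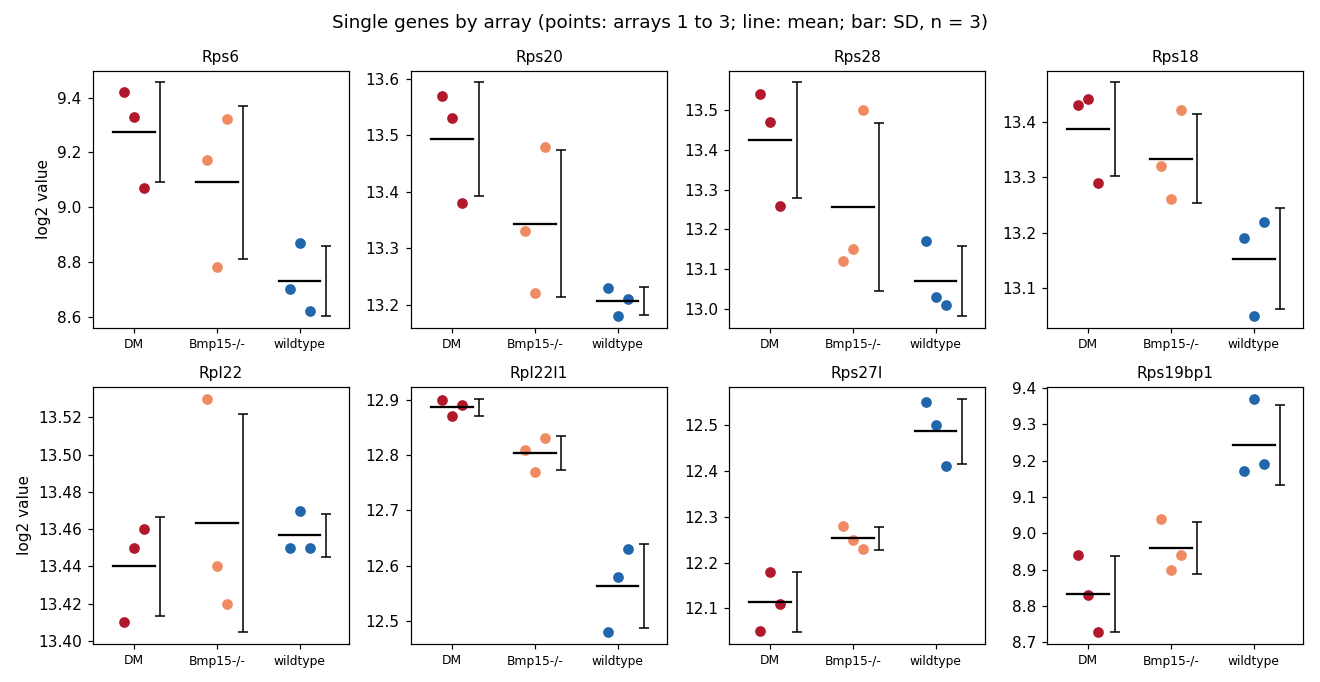
Points are the log2 values of arrays 1 to 3 for DM (left), Bmp15-/- and wildtype (right) in each panel, with the mean as a line and the SD as a bar (n = 3). The upper row gives Rps6, Rps20, Rps28 and Rps18, with all DM points above all wildtype points. The lower row gives Rpl22, whose points overlap, and Rpl22l1, Rps27l and Rps19bp1, whose DM and wildtype points do not.

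Other small-subunit genes showed smaller differences. Rpsa, which also acts as a precursor of a laminin receptor, read 13.09, 13.04 and 12.96 in DM, 13.12, 12.94 and 13.03 in Bmp15-/- and 13.01, 12.96 and 12.94 in wildtype cells, with overlap. Rps24, among the 3 highest means, read 13.95, 13.95 and 13.98 in DM, 13.95, 13.97 and 13.95 in Bmp15-/- and 13.91, 13.94 and 13.88 in wildtype cells. Rps24 was above every wildtype array in both mutants, by 0.05 and 0.04, and neither difference passed. Rps19, the gene first linked to Diamond-Blackfan anaemia in humans, averaged 13.16 ± 0.03 in DM, 13.14 ± 0.02 in Bmp15-/- and 13.19 ± 0.04 in wildtype cells (SD, n = 3 each).

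Rps2 was the member with the most negative DM difference. It read 12.38, 12.42 and 12.30 in DM, 12.52, 12.35 and 12.39 in Bmp15-/- and 12.48, 12.58 and 12.55 in wildtype cells, with DM below wildtype on all arrays by -0.17 ± 0.08 (limma adjusted p = 0.163). Rps25 read 9.20, 9.35 and 9.37 in DM, 8.91, 8.97 and 8.93 in Bmp15-/- and 9.13, 9.01 and 9.28 in wildtype cells. Bmp15-/- cells held the lowest Rps25 values on every array, and DM exceeded them by 0.37 ± 0.09 (adjusted p = 0.0661), which did not pass. Rps27, the gene with the lowest mean at 7.31, read 7.61, 7.55 and 7.02 in DM, 7.40, 7.22 and 7.20 in Bmp15-/- and 7.32, 7.16 and 7.32 in wildtype cells, and DM arrays held both its highest and its lowest values.

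Fau, a ribosomal protein of the small subunit whose symbol lies outside the rule, read 13.31, 13.34 and 13.29 in DM, 13.33, 13.25 and 13.31 in Bmp15-/- and 13.30, 13.32 and 13.28 in wildtype cells. Its genotypes overlapped, as in most of the group.

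Of the genes with related names that the rule leaves out, 5 were tested, and in DM against wildtype 1 passed higher and 2 passed lower. Of all tested genes, 9.95% passed higher and 18.2% lower there. Rpl22l1, a paralog of Rpl22, read 12.90, 12.87 and 12.89 in DM, 12.81, 12.77 and 12.83 in Bmp15-/- and 12.48, 12.58 and 12.63 in wildtype cells. The genotypes did not overlap, and DM exceeded wildtype by 0.32 ± 0.08, or 1.25-fold (limma adjusted p = 0.0122), with an adjusted p of 0.0509 without wildtype array 1. The Bmp15-/- difference of 0.24 did not pass (0.0822). In mice the Rpl22 protein is known to hold down expression of Rpl22l1. Rpl22 itself read 13.41, 13.45 and 13.46 in DM, 13.53, 13.44 and 13.42 in Bmp15-/- and 13.45, 13.47 and 13.45 in wildtype cells, a DM minus wildtype difference of -0.02 with a 95% interval of -0.18 to 0.14. Another bright probe set of Rpl22, 1416603_at, differed by -0.002. The dimmer 1448398_s_at lay higher on all DM arrays than on all wildtype arrays, by 0.28. It did not pass over all probe sets with 1 gene (limma adjusted p = 0.0708).

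Rps27l, a paralog of Rps27 and a known p53 target, read 12.05, 12.18 and 12.11 in DM, 12.28, 12.25 and 12.23 in Bmp15-/- and 12.55, 12.50 and 12.41 in wildtype cells. Again no genotype overlapped another. DM lay below wildtype by -0.37 ± 0.08 (limma adjusted p = 0.0073), and the Bmp15-/- difference of -0.23 did not pass (0.0928). Rps19bp1, which encodes a protein that binds Rps19 and not a part of the ribosome, read 8.94, 8.83 and 8.73 in DM, 9.04, 8.90 and 8.94 in Bmp15-/- and 9.17, 9.37 and 9.19 in wildtype cells. Its DM minus wildtype difference was -0.41 ± 0.09 (adjusted p = 0.0112). Rpl7l1, another like gene, read 10.12, 10.27 and 10.45 in DM, 10.60, 10.37 and 10.08 in Bmp15-/- and 10.48, 10.84 and 10.52 in wildtype cells. Its DM arrays lay below the wildtype arrays, with a difference of -0.34 (limma adjusted p = 0.138) that did not pass. The transcribed pseudogene Rps4l read 7.56, 7.91 and 6.58 in DM, 7.54, 6.12 and 6.77 in Bmp15-/- and 6.25, 6.59 and 6.11 in wildtype cells. These overlapped, and the DM difference of 1.03 did not pass (0.0757). The like genes Rpl39l and Rpl3l stayed at 4.27 to 4.77 and 4.16 to 4.58 on all arrays, below the filter.

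Other probe sets of the same genes bear on how far a single one can be trusted, since ribosomal protein genes have many processed pseudogenes and some probe sets can bind related sequences. Of the 42 genes, 22 had several probe sets, 52 beside the chosen ones. The 33 bright ones (mean of at least 11), from 18 genes, differed by -0.11 to 0.30 between DM and wildtype, and none passed in any comparison when p was adjusted over all 34958 probe sets with 1 gene (limma). An unadjusted p under 0.05 was reached by 3 of the 33 in DM against wildtype and by 0 in each of the other comparisons. Of the 34958, 18.8% passed in DM against wildtype, 4.58% in Bmp15-/- against wildtype and 1.37% in DM against Bmp15-/-. The 19 lower ones, from 14 genes, ranged more widely. Their differences ran from -0.18 to 0.73 in DM against wildtype, where 2 passed, from -1.11 to 0.22 in Bmp15-/- against wildtype, where 3 passed, and from -0.23 to 1.62 in DM against Bmp15-/-, where 3 passed and 16 were positive.

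The gene whose probe sets disagreed by the widest margin was Rpl41, which encodes the smallest protein of the ribosome. Its chosen probe set, 1455578_x_at, read 13.52, 13.52 and 13.29 in DM, 13.54, 13.45 and 13.55 in Bmp15-/- and 13.46, 13.51 and 13.47 in wildtype cells, with overlap. The probe set 1433530_at of Rpl41 read 10.84, 10.87 and 11 in DM, 9.44, 9.50 and 8.91 in Bmp15-/- and 10.20, 10.37 and 10.35 in wildtype cells. There DM lay highest and Bmp15-/- lowest with no overlap, and 1454639_x_at gave the same order of genotypes.

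Rps9, a small-subunit protein, showed a similar split. Its chosen probe set read 13.24, 13.25 and 13.22 in DM, 13.34, 13.20 and 13.20 in Bmp15-/- and 13.29, 13.23 and 13.20 in wildtype cells. The dim probe set 1426958_at of Rps9, above the 40th percentile on 6 of 9 arrays, read 5.87, 5.58 and 6.43 in DM, 4.78, 4.86 and 4.71 in Bmp15-/- and 5.73, 5.87 and 6.08 in wildtype cells, with the Bmp15-/- arrays apart from the rest. Which transcripts these dimmer probe sets measure was not tested.

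**Figure D5:**
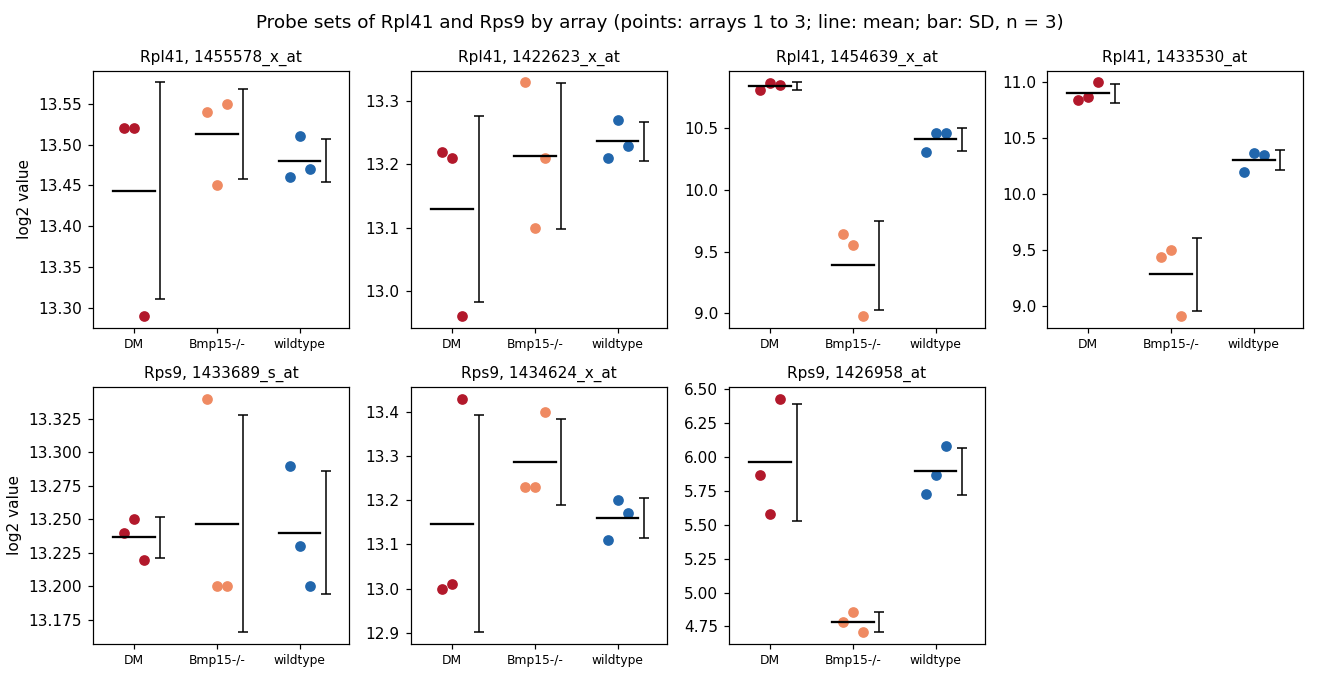
Each panel is 1 probe set of Rpl41 (upper row) or Rps9 (lower row), brightest left, with the log2 values of arrays 1 to 3 for DM, Bmp15-/- and wildtype, the mean as a line and the SD as a bar (n = 3). Genotypes overlap in the bright probe sets, except that all Bmp15-/- points of 1434624_x_at (Rps9) lie above its wildtype points, and in 1454639_x_at, 1433530_at and 1426958_at the Bmp15-/- points lie below all others.

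A further 110 probe sets list several genes that include a ribosomal protein symbol, and 107 of them were above the filter. They were not assigned to any gene. With p adjusted over all 45101 probe sets, 9 of the 107 were higher and none lower in DM against wildtype, with a median of 0.075 and a range of -0.84 to 0.74. Of all probe sets, 15.6% passed there in either direction. In Bmp15-/- against wildtype 1 was higher and 2 were lower (3.31% of all passed in either direction), and in DM against Bmp15-/- 3 were higher and none was lower (1.03%). These shares of all probe sets include dim ones and were not split by direction, so they are not a matched background for the counts.

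Other genes of translation were read from lists chosen for their function, some of which share genes. Of 33 tested initiation factors, 3 were higher and 7 lower in DM than in wildtype cells, with a median of -0.091. That is 30.3% of the list, near the 28.1% of all tested genes. Eif4e, the cap-binding protein, differed by -0.54 (limma adjusted p = 0.00317), and Eif6, which keeps the subunits apart until the large one is mature, by -0.50 (0.00286). Eif1b, a factor of start-site selection, differed by -0.72 (0.000748) from wildtype and by -0.48 (0.0303) from Bmp15-/- cells, the only one of the 33 to pass between the mutants. Of 8 tested genes on a list of elongation and termination factors, 1 was higher and 3 were lower in DM (50.0%). The 3 lower ones were Gspt1, Eef1e1 and Eef2k, and Eef2k is a kinase and not itself such a factor. Eef2, which moves the ribosome along the messenger, was higher by 0.34 (adjusted p = 0.0109), and its kinase Eef2k was lower, with a difference of -0.98 (0.00291).

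Of 51 genes of ribosomal RNA processing and assembly, 3 were higher and 6 lower in DM than in wildtype cells, 17.6% of the list against 28.1% of all genes. Among the lower ones were Dimt1, an rRNA methyltransferase, at -0.42 (adjusted p = 0.00565), and Pes1, needed for the large subunit, at -0.42 (0.0107). Of 19 genes of the RNA polymerase I machinery 1 was higher and 4 were lower, with a median of -0.174, and the 26.3% that passed is near the share of all genes. Of 17 other TOP messengers, 4 were higher in DM and none was lower (23.5%), with a median of 0.117: Eef2, Eif3f, Vim and Cct4, with differences of 0.25 to 0.44.

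In the list of TOR and MYC control, 9 of 29 genes were higher and 6 lower in DM against wildtype (51.7%). Of all tested genes 28.1% passed, 9.95% higher and 18.2% lower. Myc, a transcription factor that drives ribosome production, read 7.00, 6.90 and 7.41 in DM, 6.73, 6.37 and 6.37 in Bmp15-/- and 6.62, 5.66 and 6.12 in wildtype cells. The DM arrays lay above all others, and the difference from wildtype was 0.97 (limma adjusted p = 0.0133). Mycn, its relative, differed by -0.83 in DM (0.00326) and -1.20 in Bmp15-/- (0.00243). Mxd1, which competes with Myc for Max, was higher by 2.00 in DM (6.15e-05) and 1.91 in Bmp15-/- (0.000304). Mxi1, of the same list, went the other way, with -0.81 in DM (limma adjusted p = 0.00146) and -0.66 in Bmp15-/- (0.0127). Mxd4 and Mnt were higher in DM, by 0.85 (0.0013) and 0.61 (0.00916). Mtor overlapped between DM and wildtype with a difference of -0.05 (0.723). Of 15 tested p53 targets 6 were higher and 2 lower in DM (53.3%, against the same 28.1%), led by Trp53inp1 at 1.78 (1.76e-05).

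A measure of 3′ bias and the medians of some cell type markers also differed by genotype. The Gapdh control probes, read as the 3′ minus the 5′ log2 value, gave 0.87, 0.95 and 0.79 in DM, 0.72, 0.66 and 0.73 in Bmp15-/- and 0.59, 0.52 and 0.56 in wildtype cells, with no overlap, while Actb gave 1.85 to 2.12 in DM, 1.85 to 1.92 in Bmp15-/- and 1.87 to 1.90 in wildtype cells. The median of 14 of 15 granulosa and cumulus markers was 10.37 to 10.92 in DM, 10.95 to 10.99 in Bmp15-/- and 11.13 to 11.23 in wildtype cells, and that of the 6 of 12 tested theca and stroma markers was 6.64 to 6.83 in DM, 6.14 to 6.46 in Bmp15-/- and 5.75 to 5.95 in wildtype cells. Single markers went both ways in DM against wildtype, with 3 granulosa markers higher and 5 lower, and 3 theca and stroma markers higher and 1 lower. These calls are 57.1% and 66.7% of the tested markers, against 28.1% of all tested genes. By genotype mean Rps6, Rps20, Rps28 and Rps18 followed the order of the Gapdh and theca values and the reverse of the granulosa values. That order was not particular to them. Rplp0 and Rps26 had it too, while Rpl7a had the reverse. By array the match was incomplete. Rps6, Rps20, Rps28 and Rps18 all read lower on DM array 3 than on Bmp15-/- array 3. The Gapdh value (0.79 against 0.73) and the theca median (6.64 against 6.46) were higher on DM array 3. The part of these measures in the differences of Rps6, Rps20, Rps28 and Rps18 was not tested.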

How the data were processed

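Members and gene lists were chosen with earlier results of these data known. The deposited values are log2 expression per probe set, which the authors made with RMA in the affy package, per the submitters' processing notes, for which the sources used here state no version or setting. RMA as usually run normalizes between arrays, so values are relative to all transcripts on an array. Of 45101 probe sets, 34958 had 1 gene, 932 several and 9211 none in the platform annotation, and symbols were updated through RefSeq (34754 found in GRCm38.p6). All 9 arrays entered a single linear model per gene in limma 3.58.1 under R 4.3.3 (lmFit, then eBayes), with genotype alone as a term (6 residual and 3.46 prior degrees of freedom). Calls needed an adjusted p under 0.05 (2-sided, Benjamini-Hochberg, 13447 genes). The script was tested on simulated data, and figures were drawn with matplotlib 3.10.9. The number of arrays limits precision.

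Every array is given for called members, Rplp0, Rplp2, Rpsa, Fau, the 3 highest and 3 lowest means and tested like genes; from other lists, up to 4 called genes with the smallest p could be named, with Myc and Mtor. Other genes with array values were chosen after their values were seen. Alternatives covered the dim filter, probe set choice, normalization, the model, the replicate block and each array left out. Scanner files were not used here.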

Additional observations from a re-analysis of the deposited data

Results flagged for a closer look

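The main comparisons used 1 probe set per gene, and these signals came from other probe sets of the same genes, each with an adjusted p under 0.05 over all 34958 probe sets with 1 gene (limma). For Rpl41, the probe set 1433530_at was higher in DM than in wildtype cells by 0.59 (log2, adjusted p = 0.022). It was lower in Bmp15-/- than in wildtype cells, at -1.03 (0.00766), and higher in DM than in Bmp15-/- cells by 1.62 (0.00382). A second probe set of Rpl41, 1454639_x_at, gave -1.02 for Bmp15-/- against wildtype (0.00888) and 1.44 for DM against Bmp15-/- (0.00631). It read 10.80, 10.86 and 10.84 in DM, 9.64, 9.55 and 8.98 in Bmp15-/- and 10.30, 10.46 and 10.46 in wildtype cells. The 2 brighter probe sets of Rpl41 passed in none of the comparisons.

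The dim probe set 1426958_at of Rps9 gave -1.11 for Bmp15-/- against wildtype (0.0148) and 1.17 for DM against Bmp15-/- (0.0234), and 0.07 for DM against wildtype (0.847), which did not pass. For Rps20, the dim probe set 1450417_a_at was higher in DM than in wildtype cells by 0.65 (0.0174). It read 5.94, 6.41 and 5.87 in DM, 5.52, 5.46 and 5.69 in Bmp15-/- and 5.57, 5.21 and 5.47 in wildtype cells, the same direction as the bright probe sets of Rps20. These probe sets were picked from 52 because they passed, and what they bind was not tested.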

How the results depend on the processing

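The median differences of the ribosomal protein genes kept their positive sign under every alternative run, at 0.029 to 0.069 for DM against wildtype, 0.005 to 0.039 for Bmp15-/- against wildtype and 0.009 to 0.056 for DM against Bmp15-/-. Counts of calls were small and moved. Against the 2 genes higher in DM than in wildtype cells, 1 was called with no filter on dim genes, after quantile normalization was repeated, with arrays centred on their median, and among the genes with means of at least 11 (an alternative added after seeing the data), and 4 with trend and robust estimation. Leaving out 1 array gave 0 to 3, with 0 without DM 1, DM 2, wildtype 1 or wildtype 3. With replicate number as a block 1 gene was called, since Rps20 had an adjusted p of 0.0762, and 3587, 1084 and 360 of all genes were called in the 3 comparisons. Correlations of same-numbered arrays were -0.08 to 0.258, and those of differently numbered arrays of other genotypes -0.204 to 0.17. These ranges overlap, and the numbers were not taken to pair the samples. No gene was lower in DM, but 1 was with no dim filter (Rps16) and 2 with like genes counted (Rps27l and Rps19bp1). In Bmp15-/- against wildtype the count of lower genes was 1 with the mean of all probe sets and 2 without _x_at and _s_at probe sets, and in DM against Bmp15-/- the count of higher genes was 1 and 2 under the same settings. Those calls were Rpl41 and Rps9. With the mean of all probe sets Rpl41 turned to -0.51 in Bmp15-/- against wildtype and 0.73 in DM against Bmp15-/-, and without _x_at and _s_at probe sets to 0.59, -1.03 and 1.62 in DM against wildtype, Bmp15-/- against wildtype and DM against Bmp15-/-, and Rps9 to -1.11 and 1.17 in the last 2. Another probe set is read there. In DM against wildtype the count without _x_at and _s_at probe sets was also 2, but of Rps6 and Rpl41, since Rps20 (0.46) lost its call there (adjusted p = 0.059). It also lost it in a fit of only the 2 genotypes (0.0554), where Rps28 gained one (0.0473).

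Precision is limited by 3 arrays per genotype. Most of the chosen probe sets lay near the top of the scale, and whether that compressed their differences was not tested.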
